A study of Homo sapiens with 5 samples.

Results

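Of 11260 regions built by merging the peaks of 5 libraries of methylated DNA from K562 cells, 3388 held a peak in the DNMT3A-mutated line MT4 and in no other library. These MT4-only regions are described here. Each consists of 1 MT4 peak that was overlapped by no peak of the other 4 lists by even 1 bp. They made up 30.1% of all regions and 40.5% of the 8372 regions with an MT4 peak. Both figures follow from the rule that chose the regions and are not results about them.

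K562 is a human chronic myeloid leukaemia line. The samples were 2 wild-type cultures, 1 labelled bulk and 1 labelled transfected, and 3 lines labelled DNMT3A mutated (MT1, MT2 and MT4). The labels call the wild-type and mutated lines clones, and neither the alleles nor the time in culture are stated in them. All 5 were grown in the same medium, and each gave 1 library. MT4 had the longest list, with 8399 peaks, followed by the bulk (6213) and transfected (4470) wild-type cultures. MT1 had 2842 peaks and MT2 1426. The nearest counterpart of the MT4-only regions is the set of 1356 regions with a peak in wild-type bulk only (12.0% of all regions), which come from the second longest list.

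DNMT3A is 1 of the enzymes that place methyl groups on previously unmethylated CpG sites, while DNMT1 mainly copies existing marks after replication. In methylated DNA immunoprecipitation, an antibody against 5-methylcytosine pulls down DNA fragments. Its signal grows with both the methylation and the density of CpG sites, and with the number of copies of the DNA in the cell. A peak caller then keeps stretches in which reads pile up. Where a library lacks a peak, the site stayed under the caller's limit in it; whether it was less methylated or less well sampled cannot be told apart.

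The MT4-only regions rest on 1 library, so no replicate error exists for them and no test between conditions was made. Shares are given with 95% Wilson intervals, and medians with 95% intervals from their order statistics. Both cover counting error only, and treat neighbouring regions as independent. Intervals of differences run between opposite ends of the separate intervals, so they are wider than 95% intervals of the difference. The genotype of MT4 cannot be told apart from the line, the culture or the library.

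The number of MT4-only regions moved with the length of the list. When the MT4 list was cut to its 6213 best-scoring peaks, the length of the wild-type bulk list, 1857 regions were MT4-only and 1580 were wild-type-bulk-only. With every list cut to 1426 peaks, the numbers were 302 and 182. Without the MT4 list, wild-type-bulk-only regions numbered 2373. The MT4 set stayed the more numerous at both lengths, by a smaller margin than the 3388 against 1356 of the full lists.

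MT4-only regions came mostly from the lower part of the MT4 list. The caller score ran from 90.01 to 313.38 among them, with a median of 106.12 (105.13 to 106.95). The median over MT4 peaks in shared regions, those held by 2 or more libraries, was 146 (143 to 148). As a percentile within the MT4 list, the median member stood at 29.4 (28.2 to 30.6), and 2589 members (76.4%) were under the middle of the list. The score decides whether a peak enters a list at all, so this position is a description with no weight as evidence.

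The private share fell at each step up the score. In the lowest decile of the MT4 list 616 of 841 peaks (73.2%, 70.2 to 76.1%) were in no other list, in the fifth 400 of 842 (47.5%), in the ninth 84 of 841 (9.99%) and in the highest 15 of 840 (1.79%, 1.09 to 2.93%). The wild-type bulk list started from 54.5% (50.6 to 58.4%) in its lowest decile and ended with 0 of 622 in its highest, where a count of 0, taken as up to 3 peaks, allows a share of up to 0.482% (Wilson upper limit 0.614%). MT4 regions were also ordered by how many libraries held them: the median percentile was 29.4 with MT4 alone, 48.4 with 2 libraries, 62.0 with 3, 74.7 with 4 and 91.7 with all 5.

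**Figure D1:**
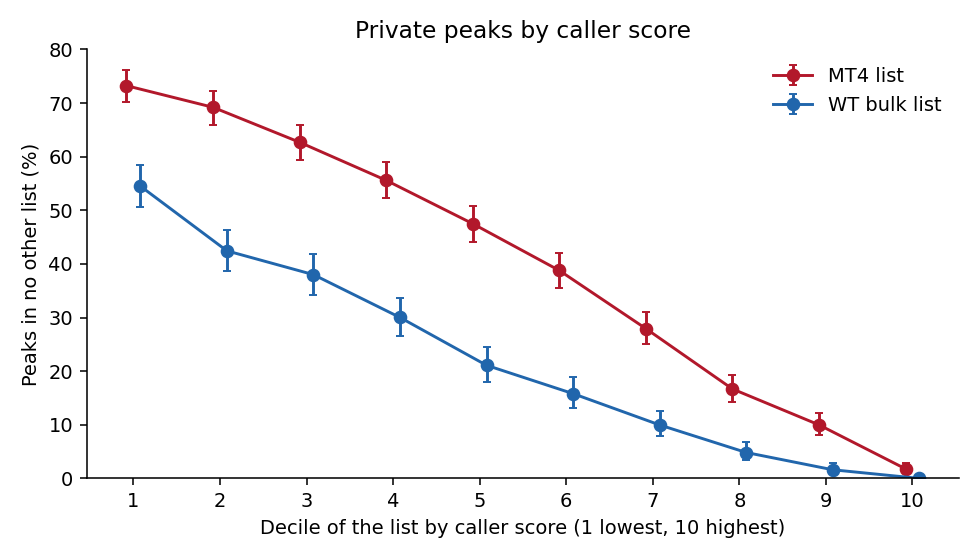
Share of peaks in no other list (percent) in each decile of the MT4 and wild-type bulk lists, ordered by caller score; bars are 95% Wilson intervals. The MT4 share fell from 73.2% to 1.79% and lay above that of wild-type bulk in each decile.

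Only 15 MT4-only regions stood above the 90th percentile of the MT4 list, and no wild-type-bulk-only region did so in its own list. The strongest member lay on chromosome 1 from 45713130 to 45714187 (hg19; score 313, percentile 97.7). The nearest peak of any other library was 77.6 kb away. The second lay on chromosome 22 from 21796865 to 21803678 (score 285, percentile 96.7). It was 6814 bp wide, and an MT2 peak lay 4084 bp from it. This member sits in the 22q11 segment with BCR, the partner of ABL1 in the BCR-ABL1 fusion, which is amplified in K562.

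The third strongest member, on chromosome 5 from 70084706 to 70085007 (score 258, percentile 94.7), was 302 bp wide, the narrowest of all 3388. The nearest peak of another library, of wild-type transfected cells, lay 33163 bp away. The next pair were a chromosome 11 member (73282326 to 73283585, percentile 92.9) and a chromosome 8 member (94845406 to 94847157, percentile 92.8). In both cases the nearest shared region was more than 90 kb away, at 324 and 98.2 kb.

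A pair of the next members came from the long arm of chromosome 7, from 108209825 to 108211125 (percentile 92.5) and from 117853992 to 117855108. They differed in their surroundings. The first had a wild-type bulk peak 8213 bp away, and the second had no peak of another list within 339 kb. The remaining 3 of the 10 strongest were on chromosome 10 from 15466929 to 15468951, chromosome 9 from 114564772 to 114565690 and chromosome 14 from 58332140 to 58333262, at percentiles of 91.9, 91.8 and 91.5. The member on chromosome 14 was the most isolated of the 10, with 1.60 Mb to the nearest shared region. The strongest wild-type-bulk-only region, on chromosome 3 from 150237388 to 150238607, reached percentile 88.0 (score 205).

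MT4-only regions were narrower than the rest of the MT4 list. Their median width was 872 bp (853 to 888), with quartiles of 683 and 1201 bp, against 1250 bp (1234 to 1271) for MT4 peaks in shared regions. Weaker peaks tend to be narrower, so the widths were also read within quartiles of the MT4 list by score. In the lowest quartile the medians were 763 bp (742 to 787) for 1480 private peaks and 972.5 bp (942 to 1013) for the shared ones. In the highest quartile they were 1131.5 bp (1058 to 1187) for 152 private peaks and 1421 bp (1395 to 1454). The intervals of private and shared peaks did not overlap in any of the 4 quartiles. By deciles they overlapped in the highest only (1095 to 1752 bp for 15 private peaks, and 1495 to 1603 bp).

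Wild-type-bulk-only regions were wider, with a median of 1028 bp (993 to 1053), but the whole wild-type bulk list was wider too (1255 bp, against 1085 bp for MT4). Private wild-type bulk peaks were narrower than shared ones of the same score quartile too, without overlap of the intervals in any of the 4. The medians were 933 and 1115 bp in the lowest quartile, 1080 and 1179 bp in the second, 1133 and 1306 bp in the third and 1125 and 1564 bp in the highest. The difference between both private sets, -156 bp, was -93.5 bp with MT4 cut to 6213 peaks. With every list cut to 1426 it was 20 bp in the opposite direction, with an interval of -178 to 176 bp.

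**Figure D2:**
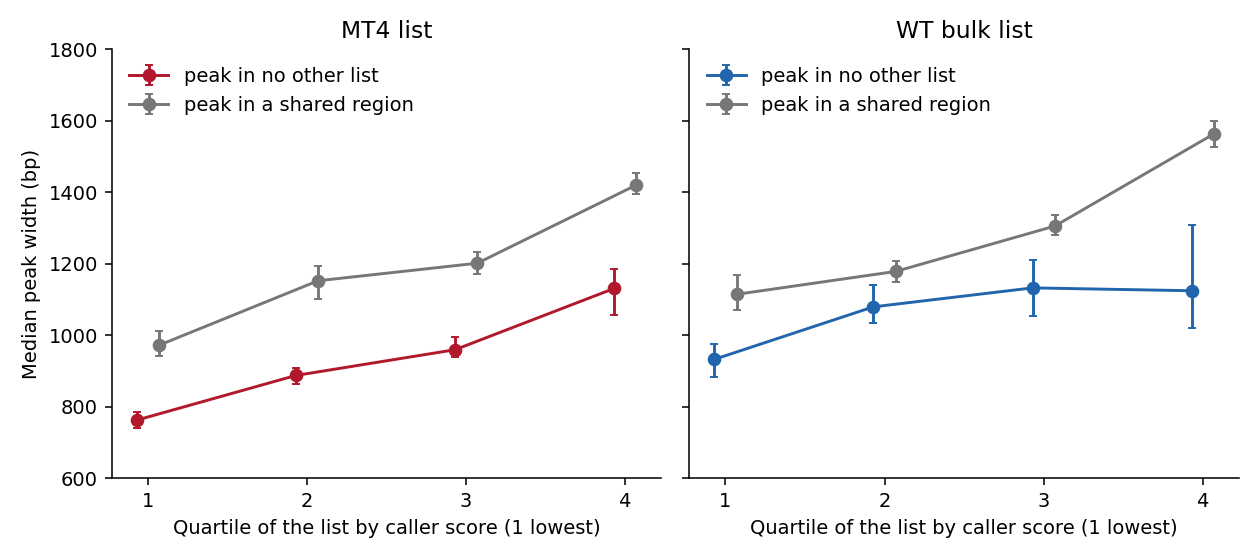
Median peak width (bp; axis from 600 bp) in each quartile of the MT4 and wild-type bulk lists by caller score, for peaks in no other list and peaks in shared regions; bars are 95% order-statistic intervals. Private MT4 peaks lay below shared ones in all 4 quartiles, from 763 against 972.5 bp to 1131.5 against 1421 bp.

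Wide members were few. Of the MT4-only regions 76 (2.24%) were 3000 bp or wider, against 241 of 5011 MT4 peaks in shared regions (4.81%). In wild-type bulk the shares were 4.79% of private and 5.06% of shared peaks. The widest member was on chromosome 5 from 1073316 to 1080342 (7027 bp, percentile 24.2), followed by the chromosome 22 member of 6814 bp given above. Next came chromosome 1 from 1683571 to 1690157 (6587 bp, percentile 9.27), chromosome 21 from 44835639 to 44841998 (6360 bp, percentile 44.8) and chromosome 22 from 22302337 to 22308674 (6338 bp, percentile 43.0). Width and score were only loosely related among the members (Spearman's rho 0.24 across 3388 regions of 1 library, a description). In all, MT4-only regions covered 3.62 Mb, 33.1% of the base pairs in the MT4 list.

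MT4-only regions lay about as far from shared regions, by the median, as shared MT4 regions lay from the next shared one. The median distance to the nearest shared region was 85.9 kb (81.3 to 90.9), with quartiles of 30.7 and 225 kb. The set of wild-type-bulk-only regions had a median of 94044.5 bp (85892 to 102690), and the intervals overlapped. With every list cut to 1426 peaks the MT4-only median was 234810 bp, and the difference from wild-type bulk, -214948 bp (-431276 to -9016), excluded 0. From an MT4 region that was itself shared, the next shared region was 80.2 kb away (76.0 to 83.8). Only 22 members (0.649%) lay within 1 kb of a shared region, and 282 (8.32%, 7.44 to 9.30%) within 10 kb. Within 100 kb there were 1837 (54.2%, 52.5 to 55.9%), and 126 members (3.72%) had none within 1 Mb. Of shared MT4 regions, 0.823% had another shared region within 1 kb and 10.4% (9.60 to 11.3%) within 10 kb. Within 100 kb it was 56.4% (55.1 to 57.8%), and 2.79% had none within 1 Mb. The intervals of MT4-only and shared MT4 regions stood apart at 10 kb only.

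**Figure D3:**
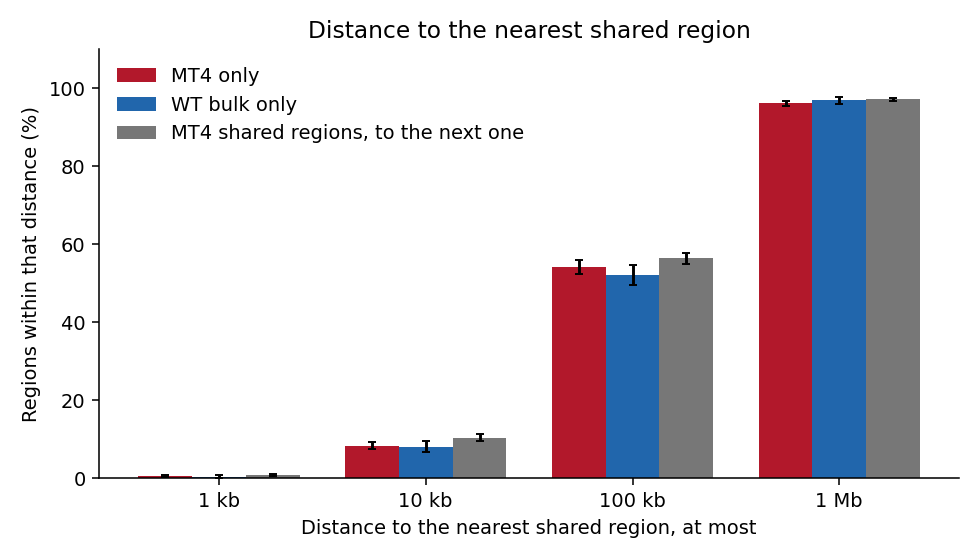
Share of regions (percent) with a shared region within 1 kb, 10 kb, 100 kb and 1 Mb, for MT4-only regions, wild-type-bulk-only regions and shared MT4 regions measured to the next shared one; bars are 95% Wilson intervals. Within 100 kb the MT4-only share was 54.2%, and the wild-type bulk share was 52.1%.

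The limit between private and shared was sharp at the level of single peaks. Among the 1610 MT4 regions held with 1 other library the median overlap was 950.5 bp, and in 3 of them it was under 100 bp. On the other side of the limit, 11 members had a peak of another list within 100 bp and 43 within 1 kb (1.27%). Just inside the rule was a member on chromosome 7 (95235162 to 95236091), with a pair on chromosome 5 (122767066 to 122767642, and 67619356 to 67619944). They were separated from the next peak by 5, 7 and 20 bp. Just outside it were regions on chromosomes 1, X and 4, the first from 174024172 to 174026175, the second from 21391963 to 21393541 and the third from 52732972 to 52734598. There MT4 and wild-type bulk peaks overlapped by 23, 34 and 93 bp.

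The shared regions beside the members were like shared regions at large. The nearest one was held by 2 libraries for 40.2% of members and by all 5 for 13.1%, against 37.5% and 14.8% of the 5642 shared regions. It held an MT4 peak in 89.5% of cases, against 88.3% of shared regions. Among single peaks, the closest one of another list belonged to wild-type bulk for 1786 members (52.7%), while that list supplied 41.6% of the other libraries' peaks. For MT2 the figures were 11.4% and 9.54%, for wild-type transfected cells 22.8% and 29.9%, and for MT1 13.1% and 19.0%. Starting from wild-type-bulk-only regions, the closest peak belonged to MT4 in 59.7% of cases, and MT4 supplied 49.0% of the peaks. There MT2 had 10.0% against 8.32%, wild-type transfected cells 18.4% against 26.1% and MT1 11.9% against 16.6%. In both sets the longest of the other lists and the shortest, MT2, were thus above their shares of peaks. Wild-type transfected cells and MT1 were below theirs.

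Some members lay far from any shared region. Apart from 1 on chromosome Y, which held 3 MT4 regions in all, the farthest were both on chromosome 13 (64651644 to 64652396, and 67419113 to 67419918), at 10.9 and 10.0 Mb. Members on chromosome X from 85227353 to 85228047 and from 2711553 to 2712488 followed at 8.04 and 7.04 Mb. The corresponding maximum for wild-type-bulk-only regions was 3.54 Mb, on chromosome 20 from 13975617 to 13976291. The maxima are over 3388 MT4-only and 1356 wild-type-bulk-only regions, and a larger set can reach farther by its size. More than 1 Mb from any shared region lay 3.72% of MT4-only and 2.95% of wild-type-bulk-only regions. The intervals of the shares within 1 Mb overlapped (95.6 to 96.9% and 96.0 to 97.8%).

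On the full lists, members had another member as nearest MT4 region somewhat more often than shared MT4 regions did. For 1504 MT4-only regions (44.4%, 42.7 to 46.1%) the nearest MT4 region was also MT4-only, against 38.6% (37.3 to 40.0%) when starting from a shared MT4 region. Over all MT4 regions it was 40.9% (39.9 to 42.0%). The private regions had the higher share in each quartile of the MT4 list by score. The intervals stood apart in the lowest quartile (43.5% of private and 35.8% of shared regions) and in the third (46.2 and 37.3%). They overlapped in the second (44.1 and 41.8%) and in the highest (47.4%, 39.6 to 55.3%, of 152 private regions, and 38.8%, 36.7 to 41.0%). In wild-type bulk the shares were 23.6% (21.4 to 25.9%) and 21.2% (20.04 to 22.3%), with overlapping intervals. The difference within MT4, 5.79 percentage points, was 5.41 without the 22q11 and 13q31 segments (described below) and 5.24 with MT4 cut to 6213 peaks. It was -3.27 (-9.71 to 3.78) with every list cut to 1426 peaks, which left 302 MT4-only regions.

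Runs were then formed from members with successive gaps of 100 kb or less. Of the MT4-only regions 1891 stood alone and 1497 fell into 565 runs of 2 or more. There were 36 runs of 5 or more, with 243 members. Wild-type-bulk-only regions, fewer in number, formed 128 runs of 2 or more and none of 5 or more. The number of long MT4 runs was 11 with the MT4 list cut to 6213 peaks and 0 with every list cut to 1426, and it was 62 without the wild-type bulk list.

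The longest run lay on chromosome 22 from 22842126 to 23369631, within the 22q11 segment, with 17 MT4-only regions in 528 kb. The libraries had 30 MT4 peaks, 13 wild-type bulk, 11 wild-type transfected, 3 MT1 and 0 MT2 peaks in this span. The members were between 773 and 5158 bp wide and between percentiles 4.05 and 91.1. All libraries except MT2 therefore had peaks there, and 14 shared regions lay among the private ones.

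The second run was on chromosome 7 from 151723621 to 152137198, with 13 members among 18 MT4 peaks. The other lists held few peaks in it: 4 in wild-type bulk, 2 each in wild-type transfected cells and MT1, and 1 in MT2. The third, on chromosome 13 from 91963481 to 92293828 in the 13q31 segment, had 11 members among 13 MT4 peaks. Wild-type bulk and transfected cells had 3 peaks each there, MT1 had 2 and MT2 had 1. These runs were denser in MT4 than in any other list by construction.

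Runs of 8 members followed, of which there were 7. By position the first was on chromosome 1 from 16886010 to 17179641, where the other libraries were well represented: both wild-type cultures and MT1 had 7 peaks each, MT2 had 3 and MT4 had 16. The next was on chromosome 6 from 161412060 to 161726705, with 14 MT4 peaks, 4 in each wild-type culture, 2 in MT1 and 0 in MT2.

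**Figure D4:**
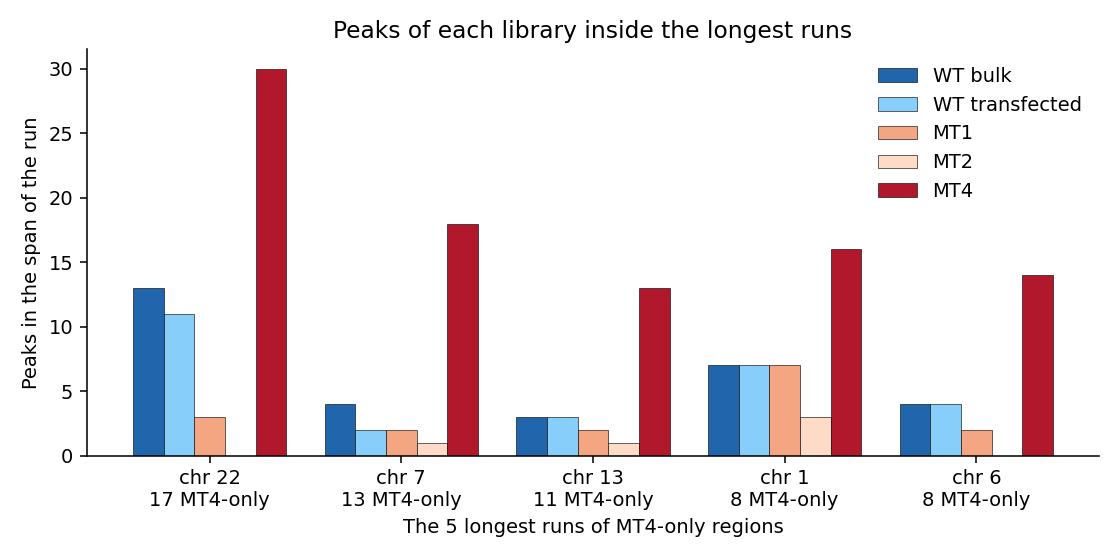
Number of peaks of each library inside the span of the 5 longest runs of MT4-only regions (17, 13, 11, 8 and 8 members). The runs were chosen for their MT4-only regions, so the height of the MT4 bars follows from the choice; the other 4 libraries had between 0 and 13 peaks.

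By windows of 1 Mb, MT4-only regions were spread over 1452 windows, of which 16 held 10 or more. The richest was chromosome 22 from 22 to 23 Mb, with 24 members among 39 MT4 peaks. Chromosome 7 from 151 to 152 Mb followed, with 16 among 24. Windows with 13 members were chromosome 6 from 167 to 168 Mb, chromosome 7 from 156 to 157 Mb and chromosome 13 from 91 to 92 Mb. They held 17, 20 and 27 MT4 peaks in turn. Their surroundings differed. The window on chromosome 6 held 4 shared regions, and that on chromosome 13 held 16. None of the wild-type bulk windows passed 7 members. The richest were chromosome 8 from 145 to 146 Mb and chromosome 21 from 46 to 47 Mb, with 13 and 14 wild-type bulk peaks. These counts come from 1356 wild-type-bulk-only regions, against 3388 MT4-only ones, and were not repeated at equal list length. Counts per window also grow with the number of peaks there.

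The 22q11 segment, taken from 17 to 24 Mb, held 60 MT4-only regions, or 8.57 per Mb, against 0.442 per Mb on chromosome 22 beyond it. All MT4 regions were dense there, and the private share was 41.1% (33.4 to 49.2%), close to the 40.5% of the whole list. The wild-type-bulk-only share was 12.8% (7.46 to 21.0%) in the segment, 40.5% (26.3 to 56.5%) on chromosome 22 beyond it and 21.9% over that whole list. Members in the segment were wide, with a median of 1753 bp (1449 to 2113), and 13 of the 76 MT4-only regions of 3000 bp or more were among them. Shared MT4 peaks of the segment had a similar median, 1628 bp (1471 to 2015).

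The 13q31 segment, taken from 89 to 94 Mb, is another that K562 carries in extra copies. It held 40 MT4-only regions among 68 MT4 regions (58.8%, 47.0 to 69.7%). On chromosome 13 below it the share was 44.2% (33.6 to 55.3%), and beyond it 58.1% (40.8 to 73.6%), with overlapping intervals. The wild-type-bulk-only share of the segment was 25% (13.8 to 41.1%). The MT4-only regions of the segment had a median width of 817 bp (697 to 929), and none reached 3000 bp. Chromosome 9 was read from 130 to 140 Mb, with ABL1, and not to its end. This stretch held 22 members among 46 MT4 regions (47.8%, 34.1 to 61.9%). Of these members, 5 were 3000 bp or wider. The wild-type-bulk-only share there was 42.9% (28.0 to 59.1%), with an overlapping interval. The limits of these segments were set from general knowledge of the K562 karyotype and not measured here.

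Chromosomes differed in how much of the MT4 list was private. Chromosome 13 had the highest share among chromosomes 1 to 22 and X, 52.3% (92 of 176; 44.9 to 59.5%). Chromosomes 21, 3 and X followed with 48.6% (41.2 to 56.0%), 47.8% (43.2 to 52.4%) and 47.1% (38.4 to 56.0%). Chromosome 7 had 45.7% (381 of 833; 42.4 to 49.1%). Chromosome 1 supplied the most members, 495, at a share of 41.5%.

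Chromosome 4 had the lowest share, 9.49% (13 of 137; 5.63 to 15.6%). MT4 had few peaks on this chromosome, 137, when the wild-type cultures had 292 (bulk) and 223 (transfected), MT1 had 144 and MT2 had 81. Its 13 members had a median percentile of 27.2 (0.595 to 47.6), near the 29.4 of all MT4-only regions, and a median width of 677 bp (345 to 1185 bp). In wild-type bulk, chromosome 4 had the second highest private share after chromosome 14, 31.4% (26.3 to 36.9%). Such regions are those that MT4 lacks, and the part of the short MT4 list for this chromosome was not tested. Chromosome 19 was the next lowest for MT4, at 29.4% (24.6 to 34.8%), and chromosome 14 had 30.6% (22.8 to 39.7%).

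**Figure D5:**
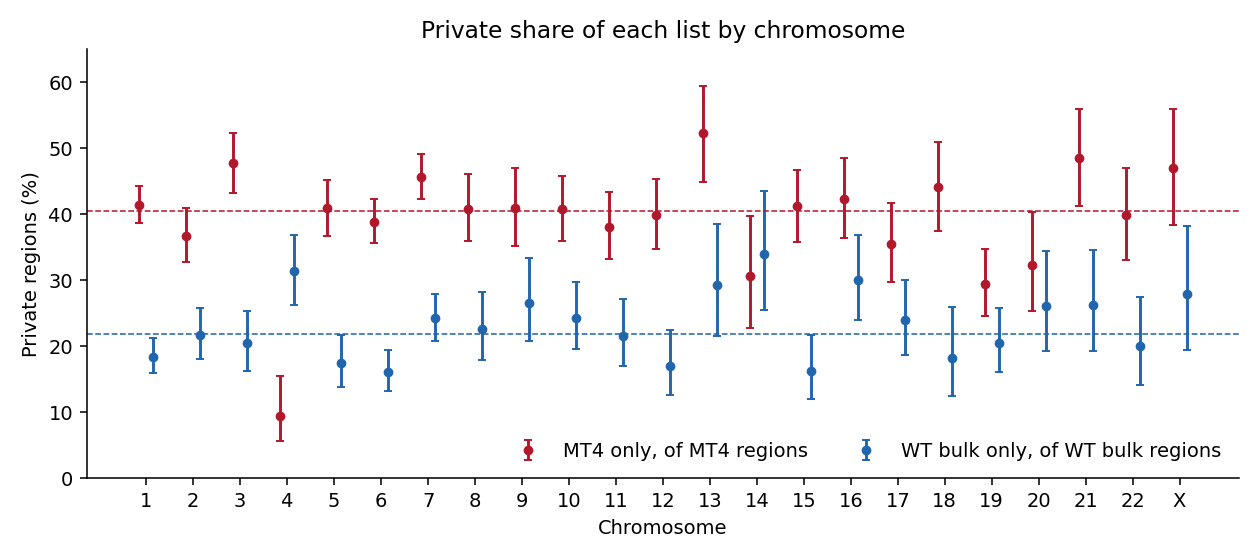
Share of the regions of each list that are private (percent), for MT4 and wild-type bulk, by chromosome; bars are 95% Wilson intervals and dashed lines the shares of the whole lists (40.5% and 21.9%). Chromosome 4 had the lowest MT4 share, 9.49%, and chromosome 13 the highest, 52.3%.

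Across chromosomes, Spearman's rho between the private shares of MT4 and wild-type bulk was -0.003 over 23 chromosomes and 0.14 without chromosome 4. The points share the other 3 lists, so these values are a description only.

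Large chromosomes were also read in 2 parts each. On chromosome 1 it was 38.8% (35.1 to 42.6%) below 150 Mb and 44.7% (40.6 to 48.9%) beyond. On chromosome 6 it was 35.3% (30.9 to 39.9%) below 60 Mb, where the histone and MHC genes lie, and 43.2% (38.2 to 48.2%) beyond. On chromosome 7 it was 43.8% (36.7 to 51.2%) below 60 Mb and 46.3% (42.5 to 50.1%) beyond. The intervals overlapped in each of the 3 comparisons. Wild-type transfected cells had only 31 peaks on chromosome 7 below 60 Mb, against 133 in wild-type bulk and 178 in MT4. Beyond it they had 276, against 426 and 659. The wild-type-bulk-only share was 27.8% (20.9 to 36.0%) below and 23.1% (19.4 to 27.4%) beyond. The part of the short transfected list in these private shares was not tested. Over the 163 bins of 10 Mb with at least 20 MT4 regions, the share ran from 15% to 66.7% with a median of 40.6%. The highest were on chromosome 3 from 0 to 10 Mb (22 of 33 MT4 regions; 49.6 to 80.2%) and chromosome 18 from 30 to 40 Mb (14 of 21; 45.4 to 82.8%). The lowest was chromosome 4 from 0 to 10 Mb (3 of 20). Bins of 1 chromosome could differ as much: on chromosome 1 the MT4 share was 20.5% (10.8 to 35.5%) from 150 to 160 Mb and 61.4% (48.4 to 72.9%) from 170 to 180 Mb. These bins were picked from their values.

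On the full lists, the MT4-only and wild-type-bulk-only regions differed in how often they lay near chromosome ends. Within 3 Mb of the outermost peak of any list on an autosome there were 296 of 3329 MT4-only regions (8.89%, 7.97 to 9.91%) and 178 of 1332 wild-type-bulk-only regions (13.4%, 11.6 to 15.3%). The outermost peak stands for the chromosome end here, and how far the true end lies from it was not measured. Shared regions gave 9.15% for MT4 and 9.24% for wild-type bulk. The MT4-only regions thus lay at the ends about as often as shared ones, and the wild-type bulk set stood above both. The difference between both private sets, -4.47 percentage points, had an interval of -7.32 to -1.73. It was -2.33 (-6.07 to 1.17) when only peaks scoring 121.64 or more, the median of the 5 lists, were kept, and -2.94 (-10.2 to 3.71) with every list cut to 1426 peaks. Both of these intervals include 0. Near the ends 39.5% of MT4 peaks were private and elsewhere 40.3%. In wild-type bulk it was 28.6% (25.2 to 32.3%) near the ends and 21.0% (19.9 to 22.1%) elsewhere. Members near the ends were wider, with a median of 1132 bp (1048 to 1227) against 859 bp (842 to 874) elsewhere. The same held for wild-type-bulk-only regions, at 1522 bp (1292 to 1835) against 986.5 bp (961 to 1028).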

How the data were processed

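Methylated DNA immunoprecipitation with paired-end sequencing was done on 5 K562 cultures, 1 library each. The authors deposited 1 peak list per library, so peaks had been called per library and not on pooled libraries. The submitters' processing notes name Bowtie 1.1.1, edgeR and the build hg19, without roles. Per the file contents, peak names begin with MACS; no source used here gives its version, threshold or control. Each deposited line gives a start, an end and the authors' caller score, which is 90 or more in every list. The score was used only to rank and filter peaks within a list. Read totals are unknown, so depth per peak is unknown. The deposited lists give starts counted from 0; coordinates printed are hg19 counted from 1.

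Peaks overlapping by at least 1 bp were merged with pandas 2.3.3 and numpy 2.4.6 (Python 3.11.15); intervals and ranks used scipy 1.17.1. A private region holds peaks of 1 library, and a shared region of 2 or more. Distances are between nearest ends. Percentiles are mean ranks within the whole list, also where lists were cut. No test was made, since 1 library carries the set. The regions and measures were chosen with earlier results of these data known. Regions were named by fixed rules: the 10 of highest percentile, the 5 widest, the 5 farthest from a shared region, the 5 longest runs, the 5 richest windows and the 3 nearest each side of the overlap limit. Strong members, single segments, bins and chromosome ends were described after their values were seen. Gene annotation and sequence in hg19 were not used here. Merging and distances were tested on simulated lists, where all 600 planted MT4-only regions among 2000 were recovered. Alternatives were a score limit, shorter lists, other overlap rules, chromosomes left out and libraries left out.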

Additional observations from a re-analysis of the deposited data

How the results depend on the processing

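Results kept their direction and stayed inside the main interval, or within 1.5 times the main count, in 96 of 126 checks with whole libraries; most of the others came from shorter lists. With only peaks scoring 121.64 (the overall median) or more, MT4-only regions numbered 1653 and wild-type-bulk-only regions 704, with 7 long runs. For MT4-only regions the median width was 1053 bp, the percentile 63.9, the distance to a shared region 161.8 kb (161814 bp) and the share with a private nearest neighbour 41.3%; the difference in distance from wild-type bulk was -22359.5 bp and that in width from shared MT4 peaks -324 bp. With every list at 1426 peaks the numbers were 302 and 182, with 0 long runs. The same values were 1274 bp, 87.5, 234810 bp and 18.2%. Differences were -214948 bp in distance, -235 bp in width from shared peaks and 1.18 points in the neighbour share. The difference in width from wild-type bulk changed sign, to 20 bp (-178 to 176). That in the neighbour share relative to shared MT4 regions changed sign too, to -3.27 points (-9.71 to 3.78). Both of these intervals include 0, and the cause was not tested. With MT4 cut to 6213 peaks there were 1857 MT4-only regions and 11 long runs, and the values were 939 bp, 46.7, 92455 bp and 34.2%; the differences from wild-type bulk were -93.5 bp in width, 22.6 in percentile and 8.50 points in the neighbour share. Percentiles rise by construction where weak peaks are removed. Overlap rules, chromosome choices and the amplified segments, the last left out after the data were seen, changed no result in this sense.

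Leaving out 1 other library at a time gave 3425 to 4409 MT4-only regions (highest without wild-type bulk) and 1379 to 2373 wild-type-bulk-only regions (highest without MT4). Medians for MT4-only regions ranged from 873 to 917 bp, from 29.4 to 33.5 in percentile and from 86642 to 120871 bp in distance, the neighbour share from 44.8 to 56.3%, and long runs from 37 to 62, the highest without wild-type bulk in each case. Differences from wild-type bulk ranged from -159 to -148 bp, 5.56 to 6.03 percentiles, -14043 to -7893 bp in distance, 19.1 to 20.9 points in the neighbour share and -4.49 to -4.15 points near chromosome ends; those from shared MT4 peaks ranged from -389 to -373.5 bp and from 5.50 to 6.75 points in the neighbour share. No paired analysis was possible because nothing in the labels links single wild-type and mutated cultures, and the results come from no test. The fixed score limit and unknown read totals bound every absence.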
